A study of Physcomitrium patens with 5 samples.

Results

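The 4 genes described here are annotated as enzymes of phenylpropanoid and flavonoid synthesis in the moss Physcomitrium patens. All of them lay in or beside a region of changed DNA methylation in the authors' deposited table. They are 4 of the 225 genes in that table and were chosen by the orthology definition printed beside the gene. Pp1s100_51V6 and Pp1s100_53V6 are annotated as phenylalanine ammonia-lyase (K10775), Pp1s15_392V6 as p-coumarate 3-hydroxylase (K09754) and Pp1s365_24V6 as chalcone synthase (K00660). Together they held 4 of the 224 distinct regions, which the table prints as 6 gene and region entries because both ammonia-lyase genes share their regions.

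Methylation was measured by bisulfite sequencing of DNA from gametophores, the leafy shoots of the moss, grown on BCD medium. There were 5 libraries, 1 for each state: moderate dehydration (called mild in part of the labels), severe dehydration, partial rehydration, full rehydration and hydrated. The table compares each of the first 4 states with the hydrated library, so the 4 comparisons share that library. No state had a second library, so the size of replicate variation is unknown and no test was made.

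Phenylpropanoid synthesis turns the amino acid phenylalanine into cinnamate and then into coumarate and its esters, from which plants make UV-absorbing phenolics, wall and cuticle components and, through chalcone, flavonoids. Phenylalanine ammonia-lyase removes the amino group of phenylalanine and opens the pathway. p-Coumarate 3-hydroxylase is a cytochrome P450 that adds a hydroxyl group to the ring of coumarate derivatives, a step on the way to caffeate-type units. Chalcone synthase condenses a coumaroyl unit with malonyl units and commits carbon to flavonoids. Mosses do not make true lignin, but they have the early phenylpropanoid steps and a phenolic-rich cuticle. In P. patens most DNA methylation is known to lie in transposable elements, with little in the bodies of genes.

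In severely dehydrated plants the regions at the ammonia-lyase genes were more methylated than in hydrated plants, by a factor of 2.07 to 2.44. In partially rehydrated plants the body of the hydroxylase gene was 2.04 times as methylated as in hydrated plants, while the body of the chalcone synthase gene was 2.71 times less methylated. Neither moderate dehydration nor full rehydration had a region at any of these genes. The ammonia-lyase and hydroxylase genes thus stood on the higher side, in different states, and the flavonoid gene on the lower side. For the direction, a positive log2 ratio is read as a higher level than in the hydrated library.

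The ammonia-lyase regions lay on scaffold 100 and overlapped each other. Region 1 ran from 270021 to 270316, downstream of Pp1s100_51V6 and upstream of Pp1s100_53V6, and the authors' deposited table gives it a log2 ratio of 1.29. Region 2 ran from 270110 to 270444, again downstream of Pp1s100_51V6 but in the body of Pp1s100_53V6, and its log2 ratio was 1.05 in the authors' deposited table. The table's flanks reach 2 kb from a gene, so both ammonia-lyase genes lay within that distance of the same stretch. Counting both end bases, region 1 had 296 bases and region 2 had 335, and they shared 207. That is 69.9% of region 1 and 61.8% of region 2, so these are overlapping readings of one stretch of 424 bases and not separate observations. Pp1s100_52V6, the number between both genes, was not in the table.

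**Figure D1:**
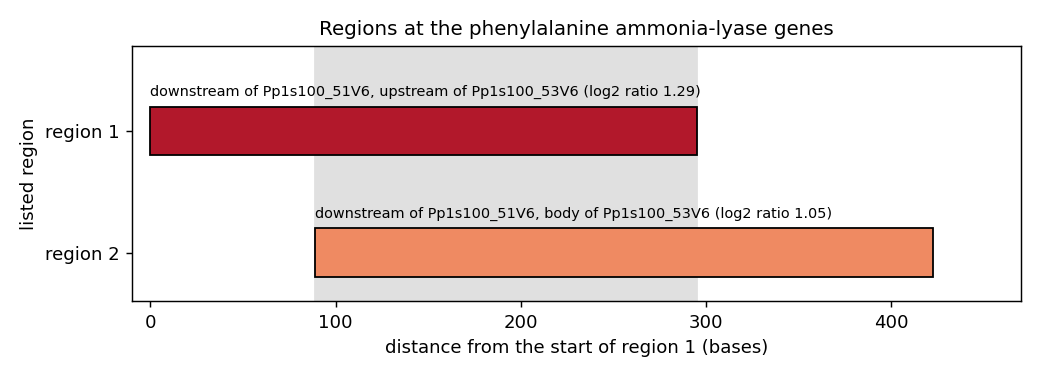
Map of the overlapping regions at the phenylalanine ammonia-lyase genes, drawn to scale as distance in bases from the start of region 1, with the gene part that the authors' deposited table gives for each gene. The grey band marks the 207 shared bases, and the log2 ratios of severe dehydration over hydrated were 1.29 for region 1 and 1.05 for region 2.

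The levels behind these ratios are known only as sets of candidates. Each ratio in the table equals a fraction of whole-percent levels, for all 224 regions, and the candidates are the pairs that give the ratio. For region 1 the pairs were 22% in severe dehydration and 9% in hydrated plants, 44% and 18%, 66% and 27%, or 88% and 36%. For region 2 they were 31% in severe dehydration and 15% in hydrated plants, 62% and 30%, or 93% and 45%. Over these pairs, the level in severe dehydration was higher by 13 to 52 percentage points in region 1 and by 16 to 48 in region 2. Were levels in steps of 0.5% allowed, the smallest differences would be 6.5 and 8 points.

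Among regions listed for severe dehydration, region 1 of the ammonia-lyase genes was of middling size and region 2 was among the smallest. Of the 22 regions, 12 were higher than in the hydrated library (54.5%) and 10 were lower. The 12 include both overlapping ammonia-lyase regions, and without them neither direction had the larger share. Over that list the log2 ratio had a median size of 1.57. Region 1 was larger in size than 7 of the 22 regions and ranked 6th of the 12 higher ones. Region 2 was larger than 2 of the 22 and ranked 11th of 12. No listed entry of any comparison had a log2 ratio smaller than 1 in size, so region 2 lay just above that floor. Among downstream regions, the next larger than region 1 was that of the ribosomal protein S21e gene (Pp1s287_34V6) at 1.31 in the authors' deposited table. The next smaller was that of a gene defined as telomeric repeat-binding factor 2 (Pp1s966_1V6) at 1.07 in the authors' deposited table, which was also the next larger than region 2. The downstream region next below region 2 was that of the autophagy gene ATG12 (Pp1s102_138V6) at -1 in the authors' deposited table. Among upstream regions, region 1 stood between that of Pp1s91_172V6 at -1.38 and that of a dihydroxyacetone kinase gene (Pp1s181_95V6) at 1.22 in the authors' deposited table.

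Both ammonia-lyase regions link genes of the same definition. Of the 38 regions linked to more than 1 gene, 7 had an orthology definition for every gene and could be judged in this respect. In 3 of these 7 the genes had the same definition, and those 3 are the overlapping ammonia-lyase regions and 1 region at a pair of cytosolic dynein genes. Overlap itself was not rare: 32 of the 224 regions (14.3%) overlapped another region of the same comparison, and all 24 overlapping pairs had the same sign. In severe dehydration the ammonia-lyase pair was the one such case. The ammonia-lyases and chalcone synthases are families of many similar copies in this moss. How the authors placed reads that match several copies is not given in the sources used here, and the part of other copies in these ratios was not tested.

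The hydroxylase gene held its region in the gene body, on scaffold 15 from 2249385 to 2249684, where the authors' deposited table gives 1.03 on the log2 scale. Only 1 pair of whole percents gives that ratio, 55% in partial rehydration and 27% in hydrated plants, a difference of 28 percentage points. Were levels in steps of 0.5% allowed, 3 pairs would give this ratio, with differences from 14 to 42 points. The hydroxylase region is the only one of the 4 whose levels could be fixed, and only if levels are whole percents. Levels were fixed for 11 of the 40 regions of partial rehydration, and the hydroxylase region was the only higher one among them. The other 10 were lower by 27 to 53 points. Levels could be fixed only where no other whole-percent pair gave the ratio. That favours regions with a high level in either library or a level of 0, which partly set the sizes of these differences. The log2 ratio of the hydroxylase region was near the smallest size listed, with 1 of the 40 regions smaller. No listed entry of any comparison was smaller than 1 in size, so this region lay just above the floor of the list.

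The direction at the hydroxylase gene was uncommon for its comparison. In partial rehydration 5 of 40 regions were higher than in hydrated plants (12.5%), and the hydroxylase region was the smallest of those 5. In gene bodies 1 of 12 entries was higher (8.33%), and that entry was the hydroxylase gene. These counts include overlapping regions, upstream of Pp1s439_5V6 among the higher ones and in the body of Pp1s508_6V6 among the lower ones. They are therefore not all separate observations. With 1 library a state, this contrast could not be tested. The next body region above it in size was that of Pp1s508_6V6 at -1.11 in the authors' deposited table. It also lay downstream of Pp1s508_5V6, a gene defined as the resistance protein RPM1. The next below was that of an axonemal dynein gene (Pp1s214_25V6) at -1 in the authors' deposited table. The definition of the hydroxylase gene ends in a further orthology identifier (K00517), so its identity as this enzyme is not settled. Its ontology terms name monooxygenase activity, which no other listed gene carried, and iron ion binding, which 4 listed genes carried.

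The chalcone synthase gene also held its region in the gene body, on scaffold 365 from 153307 to 153586, and its log2 ratio was -1.44 in the authors' deposited table. The pairs that give this ratio were 7% in partial rehydration and 19% in hydrated plants, 14% and 38%, 21% and 57%, 28% and 76%, or 35% and 95%. As the sign of the ratio sets, the level in partial rehydration was lower in every pair. It was lower by 12 to 60 percentage points and did not exceed 35%. With steps of 0.5% the smallest difference would be 6 points.

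The chalcone synthase region followed the main direction of its comparison and was of middling size. In partial rehydration 35 of 40 regions (87.5%) were lower than in hydrated plants, as were 11 of 12 gene body entries (91.7%). Overlapping regions were counted separately here. Over that list the log2 ratio had a median size of 1.37, and the chalcone synthase region was larger in size than 25 of the 40 regions. It ranked 13th of the 35 lower regions and 4th of the 11 lower gene body entries. The next larger body region was that of Pp1s95_7V6, defined as the resistance protein RPS2, at -1.52 in the authors' deposited table. The next smaller place was tied at -1.42 in the authors' deposited table. It was shared by Pp1s14_170V6, also defined as RPS2, and a gene for translation initiation factor eIF-2 beta (Pp1s81_161V6). One more listed gene carried the acyl transferase ontology term of the chalcone synthase gene, the pyruvate dehydrogenase E2 gene (Pp1s291_55V6). Read from the ratio as whole percents, the downstream flank of that gene was at 71% after full rehydration and 25% in hydrated plants.

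**Figure D2:**
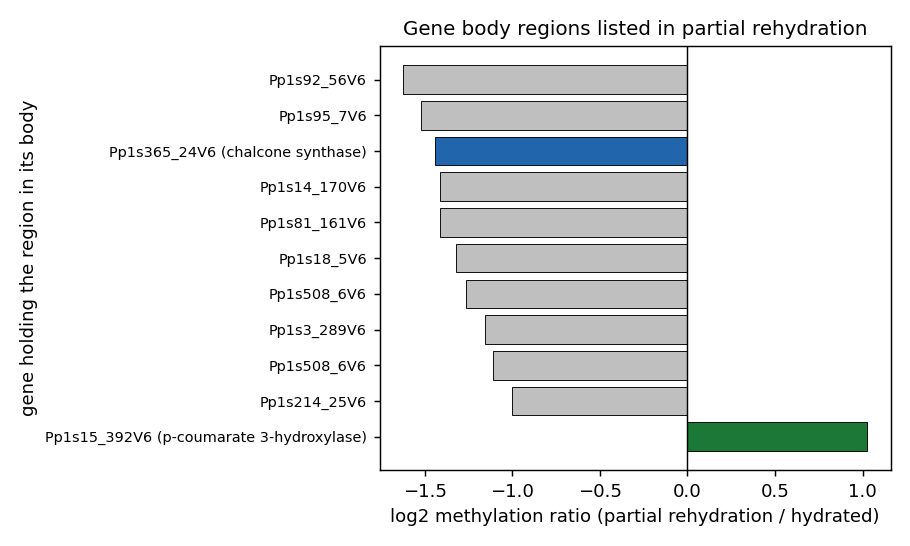
Log2 methylation ratio of partial rehydration over hydrated for gene body regions, 1 bar for each region, with the chalcone synthase gene in blue and the p-coumarate 3-hydroxylase gene in green. The chalcone synthase bar stands at -1.44 among the lower regions and the hydroxylase bar at 1.03 is the only one above 0. A region of Pp1s110_92V6, whose level in partial rehydration was read from its ratio as 0, is left out.

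**Figure D3:**
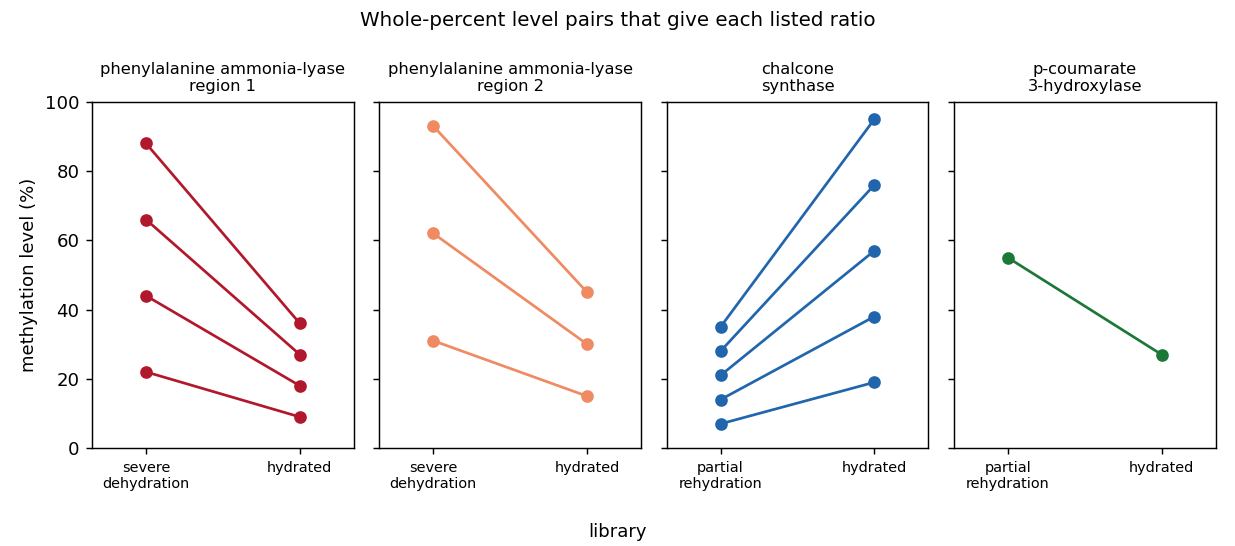
Methylation level in percent in the dehydrated or rehydrated library (left of each panel) and in the hydrated library (right), with 1 line for each whole-percent pair that gives the listed ratio. There were 4 pairs for region 1 and 3 for region 2 at the ammonia-lyase genes, 5 for chalcone synthase and 1 for p-coumarate 3-hydroxylase. The sign of the ratio sets the slope, so every line of a panel slopes the same way.

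The chalcone synthase and hydroxylase genes thus had opposite signs in the same comparison of the same libraries. Over the whole-percent pairs, the chalcone synthase region was lower by at least 12 percentage points, where the hydroxylase region was higher by 28. Both regions were of ordinary length for partial rehydration, where the median span from start to end was 303.5 bases. The chalcone synthase region spanned 279 bases and the hydroxylase region 299. The ammonia-lyase regions spanned 295 and 334 bases, against a median of 267.5 in severe dehydration, and 3 of the 22 regions there were longer than region 2.

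**Figure D4:**
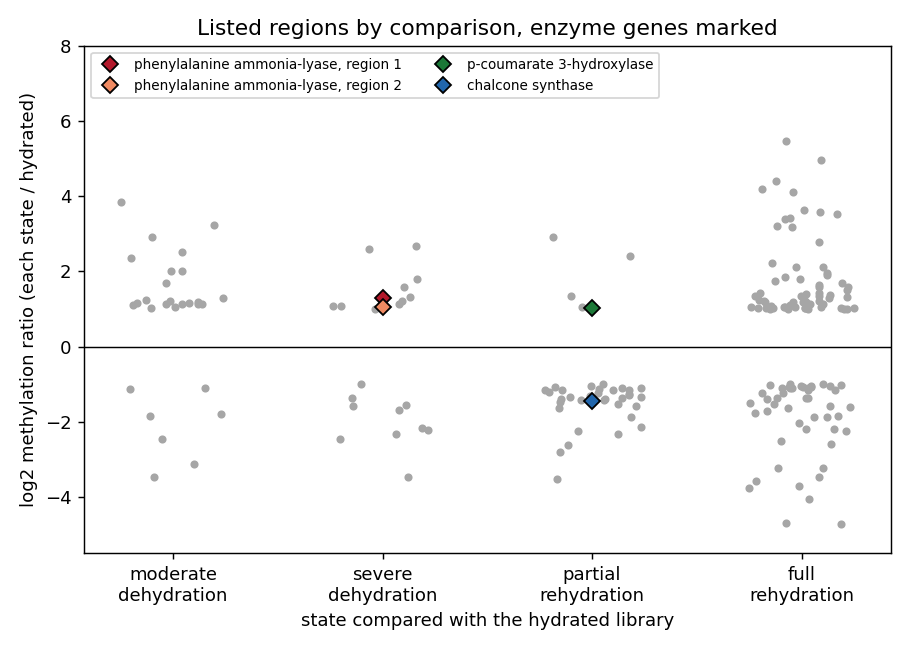
Log2 methylation ratio of each state over hydrated, with 1 point for each listed region and the enzyme genes as coloured diamonds. Ammonia-lyase region 2 (1.05) and the hydroxylase region (1.03) lie near the inner edge of the higher points. Ammonia-lyase region 1 (1.29) ranked 6th in size of the 12 higher points of severe dehydration. The chalcone synthase region (-1.44) lies among the lower points of partial rehydration. The 22 regions with a level read from the ratio as 0 are not drawn.

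Each of the 4 genes was listed in 1 of the 4 comparisons, as were 209 of all 225 genes (92.9%). A missing entry does not show that the methylation stayed the same, since the table holds listed regions only. No listed region had a fold below 2, so smaller changes may be missing from it. The scaffolds carried other listed regions, all in full rehydration and none close by. On scaffold 100, a region upstream of Pp1s100_4V6 and Pp1s100_5V6 lay 244 kb from region 1. Its levels, read from the ratio, were 60% after full rehydration and 0 in hydrated plants. On scaffold 365, a region upstream of Pp1s365_2V6 lay 151 kb from the chalcone synthase region. Read from the ratio as whole percents, it was at 86% after full rehydration and 35% in hydrated plants. On scaffold 15, the regions of a cellulose synthase A gene (Pp1s15_30V6) lay 2031 kb from the hydroxylase region, at 3.58 and 1 on the log2 scale in the authors' deposited table.

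The rest of the pathway was sparse. A list of 26 words for enzymes of phenylpropanoid, lignin-type and flavonoid synthesis matched the definitions of these 4 genes and of no other listed gene. The ammonia-lyase genes were higher in severe dehydration, through 1 shared stretch, where 54.5% of listed regions were higher, both regions of that stretch included. In partial rehydration, where 12.5% were higher, the hydroxylase gene was higher and the chalcone synthase gene lower. Cinnamate 4-hydroxylase, 4-coumarate:CoA ligase, chalcone isomerase, the flavanone and flavonol enzymes and the caffeoyl and cinnamyl reductions therefore had 0 listed genes. Of the 225 genes, 86 had an orthology definition, so enzymes of the pathway may also stand among those without one. A second list of 12 words covered enzymes that feed the pathway (the shikimate and malonyl-CoA steps) and enzymes that use its products (peroxidases, laccases and cytochromes P450). The definition of the hydroxylase gene does not hold the words used for cytochromes P450, although that enzyme is one. The second list matched 1 gene, a peroxidase (Pp1s9_70V6), whose class can oxidise phenolics in the wall. Its body region on scaffold 9, from 607316 to 607549, stood at 1.09 on the log2 scale in severe dehydration in the authors' deposited table. That is the next larger body region to region 2 of the ammonia-lyase genes. The pairs of levels for the peroxidase gene ran upward from 17% in severe dehydration and 8% in hydrated plants to 85% and 40%. In severe dehydration 2 of 4 gene body entries were higher (50%), namely those of the peroxidase gene and of Pp1s100_53V6.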

How the data were processed

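The authors deposited 1 table of differentially methylated regions by gene, and its values are the authors' log2 ratios of methylation levels, per the file headers and the values. Per the labels' protocols, sheared DNA was ligated to methylated adaptors, bisulfite-treated with a ZYMO kit, amplified and size-selected. The sources used here give no aligner, region caller, threshold, genome build, cytosine context or coverage, so depth is unknown and no counting interval is given. No listed entry had a log2 ratio smaller than 1 in size, a fold of 2. From the table, regions were counted once per comparison, ranked by the size of the log2 ratio, and matched to pairs of levels in whole percents (relative tolerance 1e-09, with 0 taken as 0.001) (Python 3.11.15, numpy 2.4.6, scipy 1.17.1, matplotlib 3.10.9). The recovery of levels was tested on simulated data. Those data were drawn as whole percents with no level of 0, so the test cannot show whether the real levels were whole percents.

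Direction was settled from 2 regions listed with the same ends in 2 comparisons. With hydrated as denominator 2 and 6 hydrated levels gave both ratios, and with hydrated as numerator 0 did. Genes were named by fixed rules: the 4 genes, matches of the word lists, listed genes on the same scaffold, and the next region above and below in size. Ontology terms and carriers, and the dynein genes, were named after values were seen. The 4 genes and the lists were chosen with earlier results of these data known. The reference gene table held 0 of the 4 identifiers, and no sequence is printed.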

Additional observations from a re-analysis of the deposited data

How the results depend on the processing

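The 4 regions counted as 6 with every gene and region entry, and a stricter minimum size, set between the log2 ratios of 1.05 and 1.29, left 2, ammonia-lyase region 1 and chalcone synthase. Region 2 of the ammonia-lyase genes was larger than 9.09% of all regions of its comparison and than 0% of the 4 body regions, and the hydroxylase region than 2.5% of all and 8.33% of the 12 body regions, in each case of few regions. The other backgrounds are parts or recounts of the same short lists, and severe dehydration had 0 regions with a level of 0 to leave out, so they say little about how stable a rank is. A tolerance of 1e-06 left the number of level pairs as it was. With levels in steps of 0.5% the pairs numbered 9 and 6 for ammonia-lyase regions 1 and 2, 10 for chalcone synthase and 3 for the hydroxylase, so all limits on levels rest on whole percents, which all 224 ratios allow. With steps of 0.5% the smallest differences became 6.5, 8 and 6 points, against 13, 16 and 12, and for the hydroxylase region 14 against 28. Matching ontology terms too left the pathway list at 4 genes. No paired analysis was possible because each state had 1 library and the table holds no values by sample. A coverage minimum could not be varied because no coverage is given.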
